A study of Rattus norvegicus with 36 samples.

Results

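The genes described here are 50 cell cycle and mitosis genes of the rat, chosen by name for their roles in the cell cycle, with earlier results of these data known but no measured value in the choice rule, out of 23940 genes tested and 25597 gene names on the array. They comprise 4 regulators of the G1/S transition, 13 genes of S phase and 33 genes of mitosis, and their signals were read in lung tissue of rats that had received DQ-12, a crystalline silica dust. Each gene was taken from the probes that carry its name, and all 50 had a probe that passed the filter on dim signals (72 probes in all, with 17 genes covered by several).

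Female Sprague Dawley rats aged 13 weeks were given DQ-12 at 10 mg per rat in sterile saline by a single intratracheal instillation, and control rats received the saline vehicle alone. The accessory lobe was sampled 1 day (D1), 30 days (D30) or 180 days (D180) later from 6 rats per group and time point, giving 36 rats. RNA of each rat was labeled with Cy3 and hybridized to its own single-color Agilent array. The labels name no transgene or other agent, 1 dose of DQ-12 was used, and the lobe was taken as whole tissue, so the values are averages over all of its cells.

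Cells that divide copy their DNA in S phase and separate the copies in mitosis, and most genes of these phases are transcribed only for part of the cycle. Transcription factors of the E2F family act at genes needed to start DNA replication. The B-MYB and FOXM1 complexes act later, at promoters that hold a CCAAT box and the cell cycle genes homology region (CHR). In resting adult lung few cells are in cycle, and transcripts of these genes are used as markers of proliferation.

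The promoters of the members differ in these letters, which the choice of members did not use. RefSeq promoters, from 250 bases before to 50 bases after the start in the GRCr8 build, were matched by symbol for 37 of the 50 members. The CHR letters TTTGAA, read on either strand, were present in 61.5% of 26 mitotic promoters, 10% of 10 S phase promoters and 18.3% of all 33469 promoters. The box CCAAT was present in 80.8%, 70% and 37.5%, respectively, and both together in 57.7%, 0% and 7.41%. The E2F letters TTTCCCGC, TTTCGCGC, TTTGCCGC or TTTGGCGC were present in 3.85% of mitotic, 60% of S phase and 2.14% of all promoters. These counts describe letters and not bound sites, and the letters of one motif can overlap those of another.

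In 23 of the 37 matched members the start used by the promoter table lies inside the annotated gene, and in 14 at its outer end, so the shares above refer to the table's start alone. The 150 bases before the start are printed for 2 mitotic and 2 S phase members of the latter kind, because they show both arrangements, with the CHR, CCAAT and E2F letters of either strand in capitals. They are written 5′ to 3′ in the direction of the gene, *Mcm5* from the plus strand and the others from the minus strand. Those of *Cdc20* (an activator of the anaphase-promoting complex) and *Top2a* (DNA topoisomerase II alpha) lie at chr5:137255800-137255949 and chr10:84473094-84473243. Those of *Mcm5* and *Mcm6* (subunits of the replicative helicase) lie at chr19:13488663-13488812 and chr13:42404353-42404502.
Cdc20: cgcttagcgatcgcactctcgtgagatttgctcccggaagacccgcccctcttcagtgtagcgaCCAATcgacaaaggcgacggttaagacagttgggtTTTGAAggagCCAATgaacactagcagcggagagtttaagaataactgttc
Top2a: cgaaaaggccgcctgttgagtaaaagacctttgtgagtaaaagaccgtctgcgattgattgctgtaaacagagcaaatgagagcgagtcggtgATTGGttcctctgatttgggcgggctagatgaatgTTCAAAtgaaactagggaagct
Mcm5: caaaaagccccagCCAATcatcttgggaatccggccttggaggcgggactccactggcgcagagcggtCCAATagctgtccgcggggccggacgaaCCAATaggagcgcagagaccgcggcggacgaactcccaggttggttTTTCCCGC
Mcm6: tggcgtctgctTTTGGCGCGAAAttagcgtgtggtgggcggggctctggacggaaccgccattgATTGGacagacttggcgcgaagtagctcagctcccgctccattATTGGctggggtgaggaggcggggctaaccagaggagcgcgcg

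At D1, the cell cycle genes were raised in nearly every member. All 50 members had a higher mean in exposed than in vehicle rats, 47 rose with an adjusted p under 0.05 (limma, Benjamini-Hochberg over all genes), and 0 fell, also at an unadjusted p under 0.05. The same threshold was passed in the upward direction by 7.58% and in the downward direction by 8.62% of all genes tested. Of the members, 40 were also changed at least 2-fold (FC, fold change) and were counted as differentially expressed genes (DEGs), against 2.02% of all genes in that direction. The median log2 FC of the members was 1.87, against -0.01 for all genes. In 43 members the 6 exposed rats all lay above the 6 vehicle rats, which held for 5.25% of all genes. In whole tissue, more cycling cells and more transcript per cycling cell cannot be told apart.

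**Figure D1:**
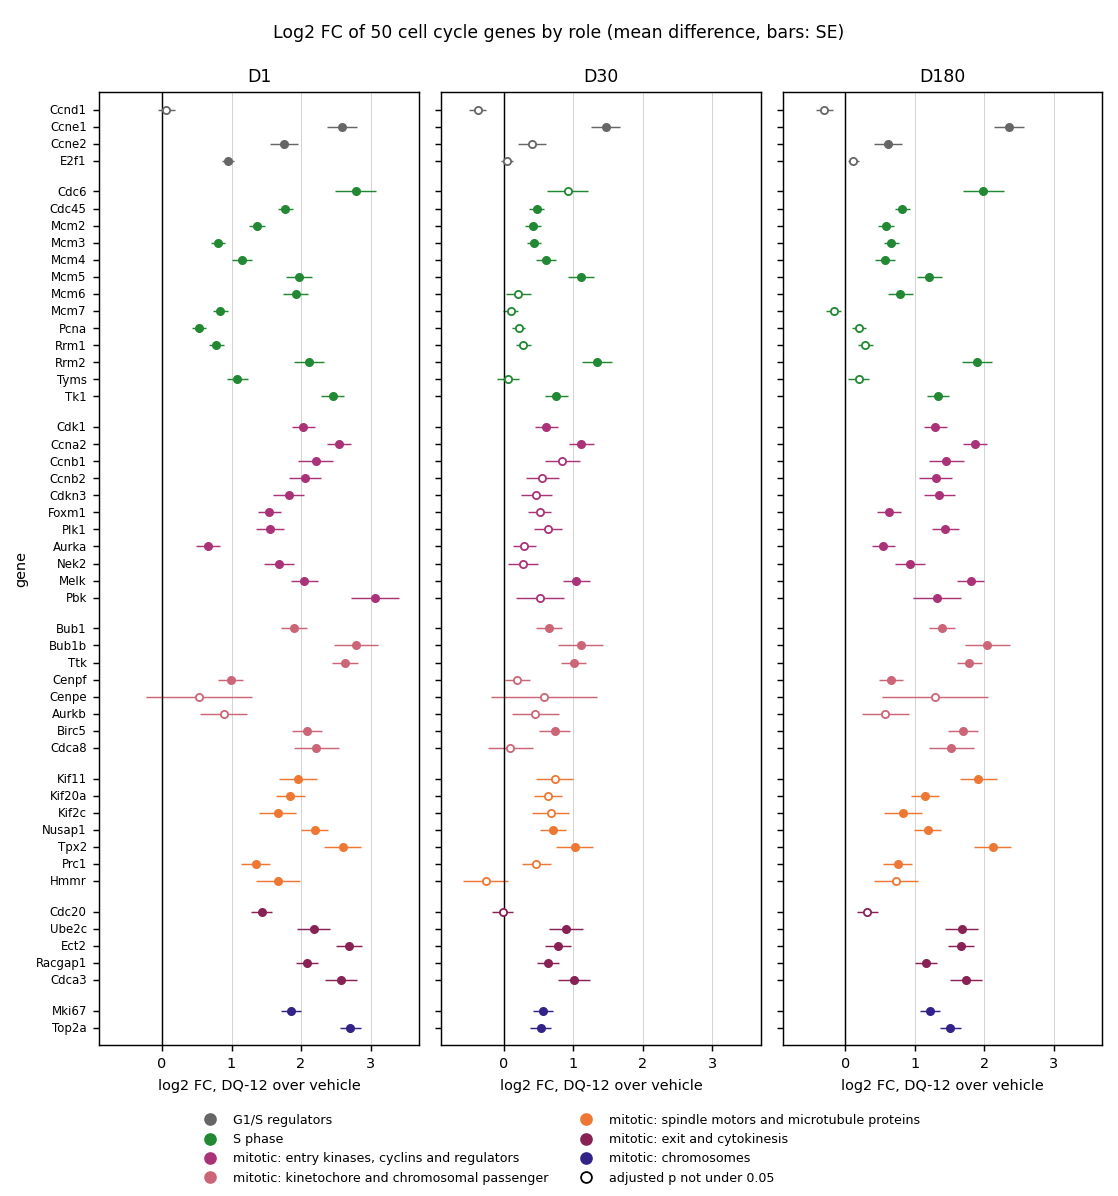
Log2 FC (DQ-12 over vehicle, horizontal axis) of the 50 members at D1, D30 and D180, ordered by role, with SE bars, where filled points have an adjusted p under 0.05. Filled points number 47 at D1, 23 at D30 and 40 at D180, and *Ccnd1* lies to the left of the other G1/S regulators at each time point. *Cenpe* and *Hmmr* are drawn as fitted although near background.

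Among the G1/S regulators, *Ccne1* and *Ccne2* encode the E-type cyclins that activate CDK2, *E2f1* an activating E2F factor, and *Ccnd1* the cyclin D1 that couples growth signals to CDK4 and CDK6. *Ccne1* had a log2 signal of 5.20 at lowest, 5.45 at the median and 6.28 at highest in vehicle rats and of 8.05, 8.09 and 8.62 in exposed rats at D1 (6.01-fold, log2 FC 2.59, SE 0.21, adjusted p = 1.59e-10). The groups stood more than a log2 unit apart. *Ccne2* gave 5.72, 6.35 and 6.91 in vehicle rats and 7.62, 8.07 and 8.56 in exposed rats (log2 FC 1.76, SE 0.20, adjusted p = 1.44e-07), again with no overlap. *E2f1* rose by less, with 9.02, 9.27 and 9.37 against 10.03, 10.15 and 10.46 (log2 FC 0.95, SE 0.08, adjusted p = 7.25e-10). *Ccnd1* overlapped almost fully, with 11.81, 12.19 and 12.39 in vehicle rats and 12.01, 12.24 and 12.47 in exposed rats (log2 FC 0.06, SE 0.13, adjusted p = 0.79).

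All 13 S phase members rose at D1, 9 of them as DEGs, and in each of the 13 the exposed rats lay above every vehicle rat. Those that load or fire replication origins spanned a wide range. *Cdc6*, which loads the helicase, gave 3.77, 4.02 and 4.90 in vehicle rats and 6.44, 6.97 and 7.39 in exposed rats (log2 FC 2.79, SE 0.29, adjusted p = 2.63e-08), and its probe was well above background on only 3 of the 6 vehicle arrays. *Cdc45*, a partner of the active helicase, had a log2 FC of 1.77 (SE 0.11, adjusted p = 4.82e-13). Within the helicase itself, the 6 subunits *Mcm2* to *Mcm7* rose by a log2 FC of 0.80 (*Mcm3*) to 1.97 (*Mcm5*). *Mcm5* gave 8.69, 9.22 and 9.72 in vehicle rats and 11.02, 11.10 and 11.57 in exposed rats, so that the groups were more than a log2 unit apart. *Mcm2* gave 10.44, 10.54 and 10.88 against 11.77, 11.83 and 12.62 (log2 FC 1.36, SE 0.12, adjusted p = 3.19e-10).

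The S phase genes that make or use nucleotides differed likewise. *Rrm2*, the regulated subunit of ribonucleotide reductase, gave 10.08, 10.47 and 11.03 in vehicle rats and 11.77, 12.72 and 13.07 in exposed rats (log2 FC 2.12, SE 0.21, adjusted p = 1.1e-08). *Rrm1*, the large subunit of the enzyme, had a log2 FC of 0.78 (SE 0.11, adjusted p = 2.45e-06), and *Tk1*, thymidine kinase 1, one of 2.46 (SE 0.16, adjusted p = 2.6e-12). *Tyms*, thymidylate synthase, reached 1.08 (SE 0.15, adjusted p = 6.02e-06). *Pcna*, the sliding clamp of DNA polymerases, rose least of the 13, with 11.44, 11.70 and 11.92 against 12.11, 12.21 and 12.42 (log2 FC 0.53, SE 0.10, adjusted p = 0.000278), yet without overlap.

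Of the 33 mitotic members, 31 rose at D1 and 29 were DEGs, with a median log2 FC of 2.03 against 1.36 for the S phase members. With normexp, another background correction, the D1 medians were 1.495 for mitotic and 1.248 for S phase members. The mitotic median stayed the higher, but the gap was narrower, so its size depended on the background correction. All 11 entry kinases, cyclins and regulators rose. *Cdk1*, the kinase that drives entry into mitosis, gave 9.63, 9.95 and 10.35 in vehicle rats and 11.53, 12.07 and 12.52 in exposed rats (log2 FC 2.03, SE 0.16, adjusted p = 8.01e-11). Its cyclin partners rose with it, by a log2 FC of 2.55 (*Ccna2*), 2.21 (*Ccnb1*) and 2.06 (*Ccnb2*). *Ccnb1* gave 6.12, 6.41 and 6.99 against 7.22, 8.81 and 9.52, which is a wide spread among exposed rats. The fitted rise of *Pbk*, a mitotic kinase, exceeded that of every other member (log2 FC 3.06, SE 0.35, adjusted p = 1.27e-07), and 4 of its 6 vehicle signals were well above background. Across alternatives of processing, batch blocks and single rats left out, its log2 FC was 1.67 at lowest. That of *Top2a* was 2.11 at lowest, so this rank of *Pbk* did not hold in each of them. The kinases *Melk* (2.05), *Nek2* (1.68) and *Plk1* (1.56), the CDK1-binding phosphatase *Cdkn3* (1.82) and the transcription factor *Foxm1* (1.54) were also DEGs, whereas *Aurka*, the spindle pole kinase, rose by 0.66 (SE 0.17, adjusted p = 0.00568).

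Of the 8 kinetochore and chromosomal passenger genes, 6 rose at D1. The checkpoint genes *Bub1b*, *Ttk* and *Bub1* had log2 FCs of 2.79, 2.63 and 1.90, and *Birc5* (survivin) and *Cdca8* (borealin), of the passenger complex, had 2.08 and 2.22. *Cdca8* was close to background in vehicle rats, being well above it on 1 of their 6 arrays but on all 6 exposed arrays. *Cenpf* rose just short of the DEG threshold (log2 FC 0.99, SE 0.18, adjusted p = 0.000164). The other two did not pass. *Aurkb*, the kinase of the passenger complex, gave 5.47, 6.57 and 7.67 in vehicle rats and 7.14, 7.26 and 7.83 in exposed rats (log2 FC 0.89, SE 0.34, adjusted p = 0.0719). The kinetochore motor *Cenpe* was well above background on only 2 vehicle and 3 exposed arrays, and 1 vehicle rat read 8.27 while the vehicle median was 2.12 (log2 FC 0.53, SE 0.76, adjusted p = 0.703).

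All 7 spindle genes and all 5 genes of exit and cytokinesis were DEGs at D1. *Tpx2*, a spindle assembly factor, led the spindle genes (log2 FC 2.60), followed by *Nusap1* (2.20), *Kif11* (1.96), *Kif20a* (1.85), *Kif2c* (1.67) and *Prc1* (1.35). *Hmmr* was well above background on 0 of 6 vehicle and 3 of 6 exposed arrays, so no fold is given and its call rests on fitted values near background. Its adjusted p by limma was 0.00036, and 0.617 and 0.453 with slide and scan date as fixed blocks. *Ect2* and *Racgap1*, which direct the cleavage furrow, rose by a log2 FC of 2.69 and 2.08, the ubiquitin-conjugating enzyme gene *Ube2c* by 2.18, *Cdca3* by 2.57 and *Cdc20* by 1.44. Transcripts of the chromosomal proteins were raised in every exposed rat. *Top2a* gave 6.42, 6.80 and 7.24 in vehicle rats and 9.03, 9.46 and 9.89 in exposed rats (6.55-fold, log2 FC 2.71, SE 0.15, adjusted p = 3.49e-14). *Mki67*, the gene of the proliferation antigen Ki-67, gave 9.07, 9.47 and 9.63 against 10.71, 11.28 and 11.62 (3.61-fold, log2 FC 1.85, SE 0.14, adjusted p = 7.26e-11). An exact permutation test of the 12 rats, for each of *Mki67*, *Top2a*, *Cdk1*, *Ccne1* and *Mcm5*, gave p = 0.00216, the smallest that 6 against 6 allows. Any gene whose groups do not overlap gives this value, as 43 members would, so it adds nothing to the lack of overlap.

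**Figure D2:**
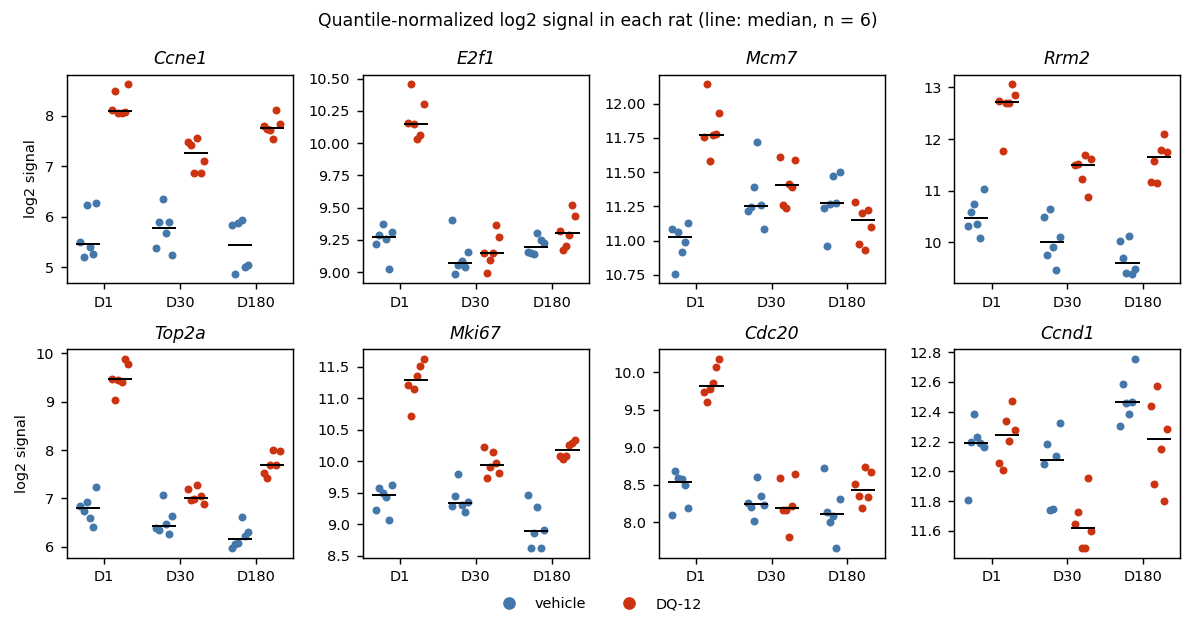
Log2 signal (vertical axis) of 8 members in each vehicle (blue) and DQ-12 (red) rat at D1, D30 and D180, with the median of 6 rats as a line. *Ccne1*, *Rrm2* and *Mki67* were raised at all 3 time points, whereas *E2f1*, *Mcm7* and *Cdc20* passed the test at D1 alone and *Ccnd1* at none.

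At D1 all 6 exposed arrays and 1 vehicle array were scanned on the same date, while the remaining 5 vehicle arrays had different scan dates. Against that 1 vehicle rat, the median log2 FC was 1.11 for the S phase and 1.88 for the mitotic members and 49 of 50 members were higher, while with slide as a fixed block 26 members were DEGs and 30 had an adjusted p under 0.05.

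The exposed rats at D1 did not all carry the same balance of S phase and mitotic transcripts. For each rat, the mean log2 signal of a list was taken relative to the vehicle mean of the day. The S phase level ran from 1.36 to 1.73 (median 1.49) in exposed rats, a narrow range, and the mitotic level from 1.15 to 2.5 (median 2.01). The rat labeled replicate 2 had a mitotic level of 1.15, which was the lowest, with an S phase level of 1.59, which was the second highest. It was the lowest of the 6 exposed rats in 31 of 33 mitotic members but in 2 of 13 S phase members, and the highest in 4 of those 13. Its mitotic level therefore lay 0.44 below its S phase level, while in the other 5 exposed rats the mitotic level lay 0.43 to 0.76 above it. In the same rat *Aurka* read 8.01, below the vehicle minimum of 8.50, and *Plk1* read 8.75, within the vehicle range, whereas *Mcm2* read 12.62, the highest of the group. The genes of the same phases outside the member list gave a similar order, with 1.09 for other S phase genes, the second highest of the exposed rats, and 0.96 for other mitotic genes, the lowest. Without this rat 41 members were DEGs, and the median log2 FC was 1.24 for the S phase and 2.14 for the mitotic members. Replicate 6 was the highest exposed rat in 38 of the 50 members.

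**Figure D3:**
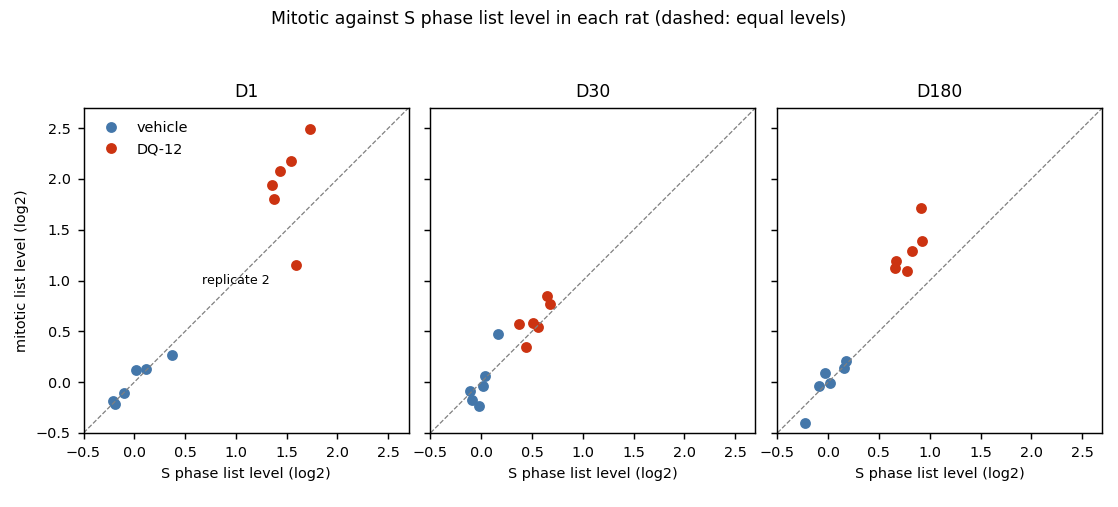
Mitotic list level against S phase list level (mean log2 signal of 33 and 13 genes, minus the vehicle mean of the day) in each rat, with equal levels dashed. At D1 replicate 2 lies 0.44 below the dashed line, and at D180 all exposed rats lie 0.31 to 0.80 above it.

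At D30 the cell cycle genes were raised by less. Of the members, 47 had a higher mean in exposed rats, 23 rose with an adjusted p under 0.05 against 2.74% of all genes in that direction, 9 were DEGs against 0.915%, and 0 fell by limma, against 1.24%, with 1 lower at an unadjusted p under 0.05 (*Ccnd1*). The median log2 FC was 0.58, and 16 members had all exposed rats above all vehicle rats, against 1.81% of all genes. The 9 DEGs at D30 were *Ccne1*, *Rrm2*, *Mcm5*, *Ccna2*, *Bub1b*, *Melk*, *Ttk*, *Tpx2* and *Cdca3*, and all 9 were DEGs at D1 and D180 as well. *Ccne1* gave 5.25, 5.78 and 6.36 in vehicle rats and 6.86, 7.26 and 7.55 in exposed rats (log2 FC 1.47, SE 0.21, adjusted p = 3.12e-05). It was the member with the highest fitted log2 FC at this time point, and its groups did not overlap. Across the alternatives its log2 FC was 0.83 at lowest and that of *Rrm2* 1.12, so this rank did not hold in each of them. *Rrm2* followed, with 9.46, 10.01 and 10.65 against 10.88, 11.50 and 11.69 (log2 FC 1.34, SE 0.21, adjusted p = 0.000122), and *Mcm5* gave 8.69, 9.03 and 9.43 against 9.85, 10.14 and 10.64 (log2 FC 1.11, SE 0.18, adjusted p = 0.000195).

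Among S phase members, 7 of 13 rose at D30, namely *Rrm2*, *Mcm5*, *Tk1* (0.76), *Mcm4* (0.61), *Cdc45* (0.48), *Mcm3* (0.43) and *Mcm2* (0.42), with a median log2 FC of 0.43 over the 13. *Mcm2* gave 10.47, 10.57 and 10.86 in vehicle rats and 10.87, 11.01 and 11.29 in exposed rats, just without overlap (adjusted p = 0.0328). *Pcna* gave 11.42, 11.59 and 11.95 against 11.72, 11.80 and 12.02, and the groups overlapped (log2 FC 0.21, SE 0.10, adjusted p = 0.279). *Cdc6* had all 6 exposed rats above the vehicle rats but did not pass the test over all genes (log2 FC 0.92, SE 0.29, adjusted p = 0.0736).

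Among mitotic members, 15 of 33 rose at D30, with a median log2 FC of 0.63. *Cdk1* gave 9.58, 9.73 and 10.17 in vehicle rats and 10.08, 10.45 and 10.66 in exposed rats (log2 FC 0.61, SE 0.16, adjusted p = 0.0224), with 5 exposed rats above every vehicle rat. *Ccnb1* gave 6.19, 6.58 and 7.26 against 7.27, 7.46 and 7.99 (log2 FC 0.84, SE 0.25, adjusted p = 0.0512), so it stood on the other side of the threshold although its groups did not overlap. *Mki67* gave 9.2, 9.33 and 9.79 against 9.73, 9.94 and 10.23 (log2 FC 0.57, SE 0.14, adjusted p = 0.0173), and *Top2a* 6.27, 6.43 and 7.07 against 6.89, 7.02 and 7.29 (log2 FC 0.53, SE 0.15, adjusted p = 0.0342). Both overlapped with the vehicle rats at their lower end. *Cdc20* showed no difference in means, with a log2 FC of -0.02 (SE 0.15, adjusted p = 0.991), and *Ccnd1* one of -0.37 (adjusted p = 0.0889). *Hmmr* and *Cenpe* were well above background on no array of either group at D30, so no fold is given.

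In the exposed rats at D30 the S phase level ran from 0.37 to 0.68 and the mitotic level from 0.35 to 0.84. The difference between them, from -0.09 to 0.20, lay within the range of the vehicle rats of that day (-0.21 to 0.31). The number of members passing at D30 depended on single rats, falling to 13 without exposed replicate 1 and rising to 28 without vehicle replicate 3, and the number of DEGs ran from 5 to 9. It was 2 DEGs with scan date or slide as a fixed block, with 8 and 9 members passing on adjusted p. The medians of the S phase and mitotic members within scan dates were 0.51 and 0.71 (4 vehicle, 1 exposed) and 0.33 and 0.37 (2 vehicle, 5 exposed).

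**Figure D4:**
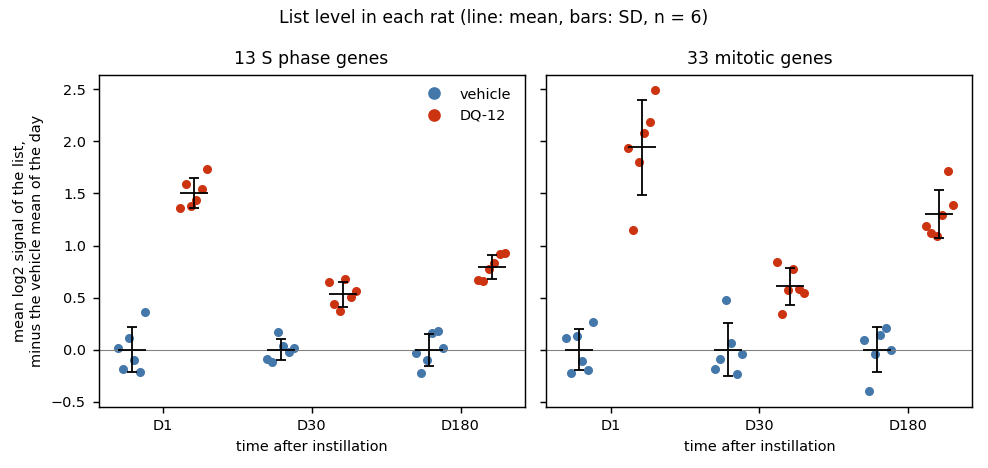
Mean log2 signal of the 13 S phase and the 33 mitotic genes in each rat, minus the vehicle mean of the day (vertical axis), with the mean and SD of 6 rats in black. All exposed rats lie above all vehicle rats of the day in the S phase panel, and in the mitotic panel this holds at D1 and D180, while at D30 1 vehicle rat reached 0.48.

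At D180 most members were again higher than in the vehicle rats of that day, the mitotic more than the S phase genes. Means were higher in 48 of the 50, 40 rose with an adjusted p under 0.05 against 7.82% of all genes in that direction, 28 were DEGs against 2.86%, and 0 fell by limma, against 9%, with 1 lower at an unadjusted p under 0.05 (*Ccnd1*). The median log2 FC was 1.21, and 33 members had all exposed rats above all vehicle rats, against 3.85% of all genes. Every member that rose at D30 or D180 had also risen at D1, and 23 rose at all 3 time points.

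The S phase genes again spanned a wide range at D180, as they had at D1. *Rrm2* (log2 FC 1.90), *Tk1* (1.34), *Mcm5* (1.21) and *Cdc6* were DEGs, 9 of 13 rose, and the median over the 13 was 0.67. *Cdc6* had a log2 FC of 1.98 (SE 0.29, adjusted p = 7.21e-06), but it was well above background on 1 of 6 vehicle and 5 of 6 exposed arrays, and its value was 0.55 with normexp, another background correction, and 0.96 with slide as a fixed block (adjusted p = 0.382). *Rrm2* gave 9.40, 9.59 and 10.12 in vehicle rats and 11.15, 11.66 and 12.10 in exposed rats, more than a log2 unit apart (SE 0.21, adjusted p = 6.97e-08). *Mcm2* gave 10.42, 10.60 and 10.76 against 10.98, 11.16 and 11.34 (log2 FC 0.59, SE 0.12, adjusted p = 0.000363). The 4 that did not pass were *Mcm7* (log2 FC -0.17, adjusted p = 0.336), *Tyms* (0.19, adjusted p = 0.464), *Pcna* (0.20, adjusted p = 0.20) and *Rrm1* (0.29, adjusted p = 0.0589). *Pcna* gave 11.10, 11.29 and 11.62 in vehicle rats and 11.39, 11.54 and 11.73 in exposed rats, with 3 of 6 exposed rats above the vehicle rats. Of the helicase subunits, 5 of 6 thus rose at D180, and *Mcm7*, with 10.96, 11.27 and 11.50 against 10.93, 11.15 and 11.28, did not pass.

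Of the 33 mitotic members, 29 rose at D180 and 23 were DEGs, with a median log2 FC of 1.32. *Tpx2* (2.12), *Bub1b* (2.04), *Kif11* (1.91), *Ccna2* (1.86), *Melk* (1.81) and *Ttk* (1.79) had the highest fitted log2 FCs. Several of their vehicle signals were dim, since *Tpx2* was well above background on 1, *Bub1b* on 2 and *Melk* on 3 of 6 vehicle arrays. With normexp the values of these 3 were 0.49, 0.64 and 0.71 and that of *Ttk* was 0.83, against 1.38 for *Ccna2* and 1.14 for *Kif11*, so this order did not hold, while all 6 passed. With slide as a fixed block *Bub1b*, *Kif11* and *Ccna2* no longer passed (adjusted p = 0.135, 0.409 and 0.072). All 11 entry genes rose, among them *Cdk1*, with 8.69, 9.31 and 9.50 against 10.11, 10.47 and 11.05 (log2 FC 1.30, SE 0.16, adjusted p = 3.58e-07), and *Ccnb1*, with 5.28, 6.33 and 6.64 against 7.47, 7.66 and 7.98 (log2 FC 1.46, SE 0.25, adjusted p = 6.55e-05). Neither overlapped with the vehicle rats. *Top2a* gave 5.97, 6.15 and 6.61 against 7.42, 7.70 and 8.0 (log2 FC 1.51, SE 0.15, adjusted p = 4.76e-09), and *Mki67* 8.62, 8.89 and 9.46 against 10.04, 10.17 and 10.34 (2.33-fold, log2 FC 1.22, SE 0.14, adjusted p = 1.59e-07). All exposed rats lay above all vehicle rats in both genes. The 4 mitotic members that did not pass were *Cdc20* (0.32, adjusted p = 0.167), *Aurkb* (0.58, adjusted p = 0.286), *Cenpe* and *Hmmr*. *Cenpe* was well above background on 0 vehicle arrays and 1 exposed array (adjusted p = 0.286), and *Hmmr* on no array of either group, so no fold is given for them. Exposed replicate 5 read 6.68 for *Cenpe*, and the next exposed rat 3.82.

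The G1/S regulators differed from one another at D180, as they had at D30 (log2 FC 1.47 for *Ccne1*, 0.41 for *Ccne2*, 0.05 for *E2f1* and -0.37 for *Ccnd1*). *Ccne1* had the highest fitted log2 FC of all members at D180, with 4.88, 5.44 and 5.93 in vehicle rats and 7.53, 7.76 and 8.12 in exposed rats (5.12-fold, log2 FC 2.36, SE 0.21, adjusted p = 9.31e-10). Across the alternatives its log2 FC was 1.35 at lowest and that of *Ccna2* 1.38, so this rank did not hold in each of them. *Ccne2* had a log2 FC of 0.61 (SE 0.20, adjusted p = 0.0335), and *E2f1* one of 0.12 (SE 0.08, adjusted p = 0.40). *Ccnd1* gave 12.31, 12.46 and 12.76 against 11.80, 12.22 and 12.57, overlapping in most rats (log2 FC -0.30, SE 0.13, adjusted p = 0.104).

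At D180 the mitotic level exceeded the S phase level in each exposed rat, by 0.31 to 0.80, above the range of the vehicle rats (-0.17 to 0.12). The S phase level was 0.66 to 0.93 and the mitotic level 1.09 to 1.71. Mitotic probes lay nearer to background, since 24 of 33 were well above it on all 36 arrays against 12 of 13 S phase probes, and with normexp the D180 medians were 0.83 for mitotic and 0.55 for S phase members, with 15 DEGs. Only 1 slide held both groups at D180, with 1 array each, and with slide as a fixed block 4 members were DEGs, while with scan date as a fixed block 29 were.

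The exposure effects themselves were compared between time points by interaction terms. From D1 to D30 the effect became smaller in 35 members with an adjusted p under 0.05, against 1.25% of all genes in that direction, and became larger in 0, also at an unadjusted p under 0.05, against 0.923%. *Top2a* had the smallest adjusted p, its log2 FC being 2.18 lower at D30 than at D1 (difference -2.18, SE 0.21, adjusted p = 1.9e-07). *Cdc45* (-1.29), *E2f1* (-0.90), *Tk1* (-1.70) and *Ect2* (-1.90) followed, so that S phase, G1/S and mitotic members were all among the leading 5. The 15 members whose change between D1 and D30 did not pass included *Ccnd1* and *Pcna*. With slide or with scan date as a fixed block, 3 members passed in each case.

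From D30 to D180 the effect differed in 1 member, *Top2a*, whose log2 FC was 0.98 higher at D180 (SE 0.21, adjusted p = 0.0306), against 0.167% of all genes in that direction. This call was lost in 9 of 36 alternatives, with slide or scan date as a fixed block (adjusted p = 0.993 and 0.168) and on leaving out any of 7 single rats, namely vehicle replicate 6 and exposed replicates 2, 3 and 6 at D30 and vehicle replicates 1 and 3 and exposed replicate 4 at D180. The differences of the 33 mitotic members were all above 0, with a median of 0.74, and 10 of the 13 S phase members lay above 0, with a median of 0.17. Part of these differences lay in the vehicle rats. The mean log2 signal of the mitotic list had a median of 7.21 at D30 and 7.42 at D180 in exposed rats, against 6.57 and 6.23 in vehicle rats. For the S phase list the medians were 9.68 and 9.69 in exposed rats and 9.15 and 8.87 in vehicle rats. Between D1 and D180 the effect was smaller at D180 in 16 members, against 1.95% of all genes. The leading 5 were *E2f1* (difference -0.83, SE 0.12, adjusted p = 5.44e-05), *Mcm7* (-1.0), *Cdc45* (-0.95), *Top2a* (-1.20) and *Cdc20* (-1.12). In S phase 7 of 13 members had a smaller effect at D180 and in mitosis 7 of 33. The median differences were nevertheless similar, -0.78 for S phase and -0.70 for mitotic members, with 13 of 13 and 32 of 33 below 0. The count of 16 became 22 without the exposed D1 replicate 2, and in limma fits it was 0 with scan date as a fixed block (12 at an unadjusted p under 0.05) and 1 with slide.

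The members that passed at D1 alone numbered 7, namely *Cdc20*, *E2f1*, *Hmmr*, *Mcm7*, *Pcna*, *Rrm1* and *Tyms*. The interaction between D1 and D180 passed in 5 of them and not in *Hmmr* or *Pcna*, so a loss of the effect of these 2 is not shown.

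The vehicle level of several members also differed between time points. Vehicle rats at D180 were lower than vehicle rats at D1 in 15 members and higher in 0 (2 at an unadjusted p under 0.05), against 4.55% and 6.04% of all genes in the respective directions. *Melk* fell by 1.52 (SE 0.19, adjusted p = 1.74e-05), from a median log2 signal of 6.08 to 4.74, with no overlap. It was well above background on 6 vehicle arrays at D1 and 3 at D180, and the difference was -0.60 with normexp. Next came *Ect2* (-0.97), *Mcm3* (-0.52), *Cdk1* (-0.80) and *Tk1* (-0.76). Between D30 and D180, 13 members fell, against 6.02% of all genes, and 1 rose, against 5.49%. The one that rose was *Ccnd1* (0.47, SE 0.13, adjusted p = 0.0129), and the first 4 of those that fell by adjusted p were *Ect2* (-0.90), *Mcm3* (-0.48), *Tpx2* (-1.08) and *Cdc6* (-1.15). *Tpx2* and *Cdc6* were each well above background on 1 of 6 vehicle arrays at D180, and with normexp they did not pass (-0.20 and -0.23, adjusted p = 0.155 and 0.127). Between D1 and D30, only *Melk* passed (-0.93, SE 0.19, adjusted p = 0.00369), against 3.38% of all genes in that direction, and with scan date as a random block it did not (adjusted p = 0.0666). With slide and scan date as random blocks the counts were 8 and 6 between D1 and D180 and 6 and 6 between D30 and D180. Rats of different time points differed in age and their arrays never shared a slide or a scan date, so age, time after saline and scan cannot be told apart.

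Other genes of the cell cycle, listed from textbook roles, were counted in the same way. Over all genes tested, 7.58% rose and 8.62% fell at D1, 2.74% and 1.24% at D30, and 7.82% and 9% at D180. Of 42 other S phase genes, 36 rose at D1, 5 at D30 and 21 at D180, and 0 fell by limma, also at an unadjusted p under 0.05, with medians of 0.97, 0.20 and 0.39. Of 56 other mitotic genes tested, 49 rose at D1, 9 at D30 and 37 at D180, with medians of 1.41, 0.47 and 0.83. The condensin subunit gene *Ncapg* (log2 FC 3.08, SE 0.53, adjusted p = 0.000104), the repressor gene *E2f8* (2.92, SE 0.25, adjusted p = 2.79e-10) and the kinesin gene *Kif14* (2.7, SE 0.27, adjusted p = 1.08e-08) led at D1. *Ncapg* was well above background on 1 of 6 vehicle arrays and did not pass with slide or scan date as a fixed block. *E2f8* was read from its brightest probe, and with the median of its probes it was 0.71 and did not pass (adjusted p = 0.246). At D30 the leading rises were in *E2f7* (1.37), *Mcm10* (1.18) and *Spc25* (1.05). *Mcm10* (adjusted p = 0.0415) was lost in 13 of 25 alternatives and was 0.26 with normexp, and *E2f7* was lost in 3 of 25. The leading rises at D180 were in *Depdc1* (2.61), *Kif22* (2.16) and *Cks2* (2.01). The only mitotic gene of this list that fell was *Stmn1* (D180, log2 FC -0.43, SE 0.13, adjusted p = 0.0162, lost in 8 of 25 alternatives), which encodes the microtubule-destabilizing protein stathmin.

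The tissue and the cells it could hold were checked by marker lists. All 8 lung epithelium markers were well above background on every array. At D180 the summed signals of 6 neutrophil markers were 55660 to 76474 in exposed rats and 18482 to 24788 in vehicle rats, those of 8 B cell and plasma cell markers 21230 to 69353 and 8100 to 19018, and those of 8 macrophage markers 323294 to 385948 and 312557 to 316567. In the order D1, D30 and D180, markers that rose numbered 3, 4 and 4 of 8 for macrophages, 1, 2 and 4 of 6 for neutrophils, 0, 1 and 2 of 8 for B cells and plasma cells and 0, 0 and 0 of 6 for T cells (limma, with 1 higher at D180 at an unadjusted p under 0.05). All 6 endothelial markers fell at D180, as did 3 of 6 cardiac muscle markers. Over all genes tested, 7.58%, 2.74% and 7.82% rose and 8.62%, 1.24% and 9% fell at D1, D30 and D180. In the same order of time points, lung epithelium markers rose in 1, 2 and 2 of 8 and fell in 1, 0 and 3. At D30, 2 of these were lower at an unadjusted p under 0.05 in limma. Erythroid markers fell in 2, 3 and 4 of 6 and rose in 1, 1 and 0. In limma, 1 of them was higher at D180 at an unadjusted p under 0.05. The summed erythroid signals at D180 were 10414 to 16701 in exposed and 17296 to 24365 in vehicle rats, with no overlap. At D1, when the members were raised most, the sums for neutrophil markers were 23033 to 54973 against 21914 to 33006 and those for macrophage markers 279438 to 320363 against 313729 to 317911, overlapping in both. The cardiac muscle marker *Nppa* was short of well above background on every array of exposed rats at D180. The part of these cells in the cell cycle signals was not tested.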

How the data were processed

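RNA from the accessory lobe of 36 rats was measured on 36 single-color Agilent arrays, 1 per rat. The authors extracted the deposited intensity values with Feature Extraction 12.0.1.1, which subtracted the background and detrended each array. Their own processing, per the paper's methods, went on to filter probes by quantile, normalize by quantile and correct for a batch that is not named. The authors' deposited log2 values match log2 processed intensities from which the array's 75th percentile and then each probe's median were subtracted (r = 0.99997 over 1641055 values, with a median absolute difference of 0.00177), and were used as an alternative.

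Here, processed intensities were put on the log2 scale, outlier spots (232 to 596 of 58717 per array) were left out, and spots of a probe were averaged. Probes above the 95th percentile of 308 negative controls on at least 6 arrays were kept and quantile normalized, and each gene was read from its brightest probe by mean. Other probes of the 17 members with several gave the opposite sign in 2 pairs of gene and time point. No spot was saturated, and 51.5 to 75.5% of probes per array were well above background, which limits what can be said of dim genes. The number of arrays limits the precision.

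A model of 6 group means was fitted in limma 3.58.1 to all 36 arrays (2-sided, Benjamini-Hochberg adjustment over 23940 genes per comparison). A DEG had an adjusted p under 0.05 and at least a 2-fold change. Interaction terms compared the time points. For single genes an exact permutation test over 6 against 6 rats was added. No test was run on a list. The files gave 19 slides and 11 scan dates, used as blocks only in alternatives, as were another background correction, scaling, filter, probe summary, moderation and each rat left out. Within 1 scan date, differences of means were added after seeing the data. The scripts were tested on simulated data.

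The members and lists were chosen with earlier results of these data known. Named in the text are the members called at a fold of at least 2, the 10 with the largest change at each time point, and *Mki67*, *Top2a*, *Cdk1*, *Ccnb1*, *Ccnd1*, *Pcna* and *Mcm2* throughout. Also named are the 5 with the smallest adjusted p in each comparison of time points, the 3 largest rises and falls among other cell cycle genes, and *Cdkn1a*, *Ccnd2* and *Myc*. Further members, and the non-members *Cdkn2a*, *Skp2*, *Mybl2* and *E2f5*, were named after their values were seen. The calls of these non-members were not followed through the alternatives. Each array is 1 rat, so p-values measure the spread between rats. R 4.3.3, Python 3.11.15 and matplotlib 3.10.9 were used. Promoter sequences came from RefSeq (GRCr8), and a rat genome was not used here. The values of 1 marker gene are not reported here.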

Additional observations from a re-analysis of the deposited data

Results flagged for a closer look

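Among the 312 groups of 6 rats tested, 23 held a rat whose value stood far from the other 5 by Dixon's test, and chance flags about 1 in 20 groups. The exposed D1 rat labeled replicate 2 accounted for 7 of them, high for *Mcm2* (log2 signal 12.62, next 12.03) and low for *Rrm2* (11.77), *Tyms* (7.36), *Plk1* (8.75), *Aurka* (8.01), *Nek2* (7.69) and *Cenpe* (1.88). Exposed D1 replicate 6 was high for *Rrm1* (12.23). In vehicle rats at D1, replicate 6 was high for *Tk1* (8.70) and replicate 1 for *Cenpe* (8.27).

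In vehicle rats at D30, replicate 3 was high for *Bub1* (8.35), *Hmmr* (3.53) and *Racgap1* (8.42). In vehicle rats at D180, 5 values stood apart, namely *Rrm1* in replicate 6 (11.63), *Ccnb1* in replicate 2 (5.28), *Nek2* in replicate 1 (7.57), *Pbk* in replicate 5 (6.74) and *Cenpe* in replicate 4 (4.91). Exposed replicate 5 at D180 was low for *Cdc6* (4.83) and high for *Cenpe* (6.68), *Nusap1* (8.94) and *Ect2* (8.74), and exposed replicate 6 was high for *Aurkb* (6.93).

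The exposure effect differed between time points, by an interaction term with an adjusted p under 0.05, in 52 pairs of member and time points. From D1 to D30 the log2 FC of the S phase and G1/S members changed by -1.86 (*Cdc6*), -1.71 (*Mcm6*), -1.70 (*Tk1*), -1.34 (*Ccne2*), -1.29 (*Cdc45*), -1.12 (*Ccne1*), -1.02 (*Tyms*), -0.94 (*Mcm2*), -0.90 (*E2f1*) and -0.74 (*Mcm7*). That of the mitotic entry members changed by -2.54 (*Pbk*), -1.5 (*Ccnb2*), -1.43 (*Ccna2*), -1.42 (*Cdk1*), -1.40 (*Nek2*), -1.37 (*Ccnb1*), -1.35 (*Cdkn3*), -1.03 (*Foxm1*) and -1.0 (*Melk*), and that of the kinetochore and passenger members by -2.12 (*Cdca8*), -1.68 (*Bub1b*), -1.62 (*Ttk*), -1.35 (*Birc5*) and -1.24 (*Bub1*). The spindle members changed by -1.93 (*Hmmr*), -1.58 (*Tpx2*), -1.49 (*Nusap1*) and -1.21 (*Kif20a*), where *Hmmr* was well above background only on 3 exposed arrays at D1 so that its value is no measured size, those of exit and cytokinesis by -1.90 (*Ect2*), -1.55 (*Cdca3*), -1.45 (*Cdc20*), -1.44 (*Racgap1*) and -1.29 (*Ube2c*), and the chromosomal ones by -2.18 (*Top2a*) and -1.28 (*Mki67*).

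From D30 to D180 the log2 FC of *Top2a* changed by 0.98. From D1 to D180 it changed by -1.15 (*Ccne2*), -1.13 (*Mcm6*), -1.12 (*Tk1*), -1.0 (*Mcm7*), -0.95 (*Cdc45*), -0.89 (*Tyms*), -0.83 (*E2f1*), -0.78 (*Mcm2*) and -0.50 (*Rrm1*) among S phase and G1/S members, and by -1.74 (*Pbk*), -1.20 (*Top2a*), -1.12 (*Cdc20*), -1.01 (*Ect2*), -1.01 (*Nusap1*), -0.93 (*Racgap1*) and -0.91 (*Foxm1*) among mitotic members.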

How the results depend on the processing

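Among the values of named genes followed through the alternatives, the sign changed only in *Ccnd1* and the non-member *Ccnd2*, while counts moved with the batch terms. Of the values for single genes, 1545 kept their direction and side of the threshold under the alternatives other than leaving out a rat, 150 no longer passed, 7 newly passed and 8 changed sign, and on leaving out a rat the numbers were 1656, 84, 9 and 3. *Ccnd1* at D1 became -0.17 (slide) and -0.16 (scan date) with fixed blocks and -0.0080 (slide) and -0.0073 (scan date) with random ones (intra-block correlation 0.387 and 0.251), ran from -0.0072 (without vehicle replicate 1) to 0.11 on leaving out a rat, and at D180 it became 0.057 with slide as a fixed block. *Ccnd2* became 0.0027 (D1, slide as a fixed block), 0.068 (D1, scan date) and 0.0027 (D30, scan date), and at D180 -0.092 without vehicle replicate 1 and -0.02 without replicate 3 (up to 0.45 on leaving out another rat). Neither gene passed in these settings, but *Ccnd1* passed as lower at D30 without vehicle replicate 3 (-0.43), vehicle replicate 4 (-0.43) or exposed replicate 5 (-0.44) and at D180 without exposed replicate 3 (-0.37). The causes were not tested.

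With slide as a fixed block, DEGs numbered 26 at D1, 2 at D30 and 4 at D180, members with an adjusted p under 0.05 numbered 30, 9 and 4, and interactions numbered 3 (D30 against D1) and 1 (D180 against D1), with medians of 1.15 (S phase) and 1.70 (mitotic) at D1 and 0.44 and 1.08 at D180. With scan date as a fixed block, D30 had 2 DEGs and 8 members passing, the interactions numbered 3 (D30 against D1), 0 (D180 against D30, with 24 at an unadjusted p under 0.05 in limma) and 0 (D180 against D1, with 12), and the S phase median at D1 was 1.11. With slide as a random block, D30 had 4 DEGs, and vehicle rats differed in 6 members (D180 against D30) and 8 (D180 against D1). With scan date as a random block, D30 had 3 DEGs and 10 members passing, the interactions numbered 23 (D30 against D1) and 10 (D180 against D1), and vehicle rats differed in 0, 6 and 6 members (D30 against D1, D180 against D30, D180 against D1), the first with 2 at an unadjusted p under 0.05. Within single scan dates, chosen after seeing the data, the S phase median was 1.11 at D1 (1 vehicle, 6 exposed) and 0.93 at D180 (1 and 1), and the mitotic median 0.37 at D30 (2 vehicle, 5 exposed), and 1.05 (3 and 3) and 2.28 (1 and 1) at D180.

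With normexp, DEGs numbered 2 at D30 and 15 at D180, the interactions of D180 against D1 numbered 26, vehicle rats differed in 2 (D30 against D1) and 6 members (D180 against D30), and the mitotic median was 1.5 at D1 and 0.83 at D180. A fold of 1.5 gave 18 DEGs at D30. Scaling by the 75th percentile and the deposited values each gave a mitotic median of 1.83 at D1 and 3 members for vehicle rats of D30 against D1. That last count was 2 when only probes well above background throughout a group were kept and with trend and robust moderation. The median over probes gave an S phase median of 0.33 at D30 and 9 members for vehicle rats of D180 against D30.

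On leaving out each rat in turn, DEGs ran from 39 to 42 at D1, 5 to 9 at D30 and 28 to 29 at D180, and members passing on adjusted p from 47 to 48, 13 to 28 and 38 to 41. Interactions ran from 30 to 38 (D30 against D1), 0 to 1 (D180 against D30) and 13 to 22 (D180 against D1), and vehicle comparisons from 1 to 2 (D30 against D1), 7 to 14 (D180 against D30, 7 without vehicle D30 replicate 3) and 10 to 16 (D180 against D1, 10 without vehicle D1 replicate 6). Medians ran from 1.24 to 1.42, 0.40 to 0.48 and 0.63 to 0.72 for S phase and from 1.92 to 2.14, 0.57 to 0.72 and 1.21 to 1.39 for mitotic members.

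The numbers of the rats are shared by the groups but did not pair them, since the deviations of same-numbered rats correlated between -0.13 and 0.22. With the number as a replicate block, DEGs numbered 40, 9 and 28 and members passing 47, 23 and 41. No vehicle comparison between time points could be fitted with slide or scan date as a fixed block. Dim signals limit *Cenpe* and *Hmmr*, which were well above background on 6 and 3 of 36 arrays.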

Other observations

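Genes that restrain the cell cycle did not move as a group. Of 19 CDK inhibitors, pocket proteins and repressors, 5 rose and 4 fell at D1, 2 rose and 0 fell at D30 (limma, with 2 lower at an unadjusted p under 0.05), and 4 rose and 1 fell at D180. Over all genes tested, 7.58% rose and 8.62% fell at D1, 2.74% and 1.24% at D30, and 7.82% and 9% at D180. Among those that rose at each time point were the atypical E2F factors *E2f8* (log2 FC 2.92 at D1, 0.90 at D30 and 1.98 at D180) and *E2f7* (2.5, 1.37 and 1.27), which repress E2F targets. With the median of its probes *E2f8* was 0.71 at D1 and did not pass (adjusted p = 0.246). Falls were small. At D1 they were *Cdkn1c* (p57, -0.69, adjusted p = 0.0442), *Gadd45a* (-0.38, adjusted p = 0.00609) and *Rbl2* (p130, -0.35, adjusted p = 0.0186), with *E2f5* (-0.32, adjusted p = 0.0122), and at D180 *Rbl2* (-0.30, adjusted p = 0.0438). The calls of *Cdkn1c* at D1 and *Rbl2* at D180 were each lost in 14 of 25 alternatives, those of *Rbl2* and *Gadd45a* at D1 in 5 and 3. *Cdkn1a*, the gene of the CDK inhibitor p21, had a log2 FC of 0.14, -0.23 and 0.29 at the 3 time points (adjusted p 0.622, 0.561 and 0.258, limma) and its groups overlapped at each. *Cdkn2a*, which encodes p16 and ARF, gave a median log2 signal of 5.27 in vehicle and 6.64 in exposed rats at D180, with no overlap (log2 FC 1.41, SE 0.27, adjusted p = 0.000279), and its differences of 0.58 at D1 and 0.47 at D30 did not pass (adjusted p = 0.154 and 0.433). This gene was named after its values were seen, and its call was not followed through the alternatives.

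Of 11 G1 cyclins, CDKs and activating factors, 5 rose at D1, 1 at D30 and 4 at D180, against 7.58%, 2.74% and 7.82% of all genes. *Skp2*, a subunit of the ubiquitin ligase that degrades p27, rose by 2.10 at D1, and *Mybl2*, the gene of B-MYB, by 1.79, 0.81 and 1.30. *Myc* had log2 FCs of 0.52 (adjusted p = 0.0407), 0.55 (adjusted p = 0.0815) and 0.61 (adjusted p = 0.0151), so that it passed at D1 and D180. The call of *Myc* at D1 was lost in 15 of 25 alternatives, among them scaling by the 75th percentile and every slide or scan date block, with values from 0.0040 to 0.62, and that at D180 in 4 of 25. *Ccnd2*, the gene of cyclin D2, had -0.19, -0.74 and 0.19 (adjusted p 0.793, 0.356 and 0.825), with an SE of 0.38. At each time point the D-type cyclin genes *Ccnd1* and *Ccnd2* did not pass, while the E-type cyclin gene *Ccne1* did. The other E-type cyclin gene, *Ccne2*, passed at D1 and D180 but not at D30 (log2 FC 0.41). Its call at D1 was lost with slide as a fixed block (limma, adjusted p = 0.073).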
